A study of Homo sapiens with 6 samples.

Results

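The genes of transforming growth factor beta (TGF-beta) and bone morphogenetic protein (BMP) signalling were read from the whole gene table by symbol. The list held 47 genes, and all 47 were found among the 27685 genes of the table. Of these, 42 had enough reads to be tested, and the counts below describe those 42. The study sequenced polyA RNA of Caco-2, an established colorectal tumour cell line, in 2 groups of 3 libraries. The vector control cells (genotype label WT) had been mock-transfected with the plasmid vector pcDNA3. The other cells (genotype label FABP1_knockdown) carried hFABP1as, an antisense construct against FABP1 (a fatty acid carrier of the cytosol), and derive from the control cells by the series' design text. Both groups were grown in the same serum-containing medium. The number of lines or clones in a group is not stated, so a difference between lines and an effect of the construct cannot be told apart. No label ties the libraries to separate cultures. The spread behind the p-values is then that of 3 libraries a group, and it may be technical.

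In this pathway, dimeric ligands bring together type II and type I receptor kinases, which phosphorylate SMAD proteins. SMAD2 and SMAD3 carry TGF-beta and activin signals, SMAD1, SMAD5 and SMAD9 carry BMP signals, and SMAD4 is the partner of both sets. Secreted antagonists, inhibitory SMADs, ubiquitin ligases and nuclear corepressors hold the signal back, and several of these are themselves induced by it. In the gut, BMP signalling is known for favouring differentiation over crypt growth, and TGF-beta for restraining epithelial growth. Caco-2 has been reported to carry a missense change in SMAD4, which gene counts do not show.

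Library totals ran from 40351394 to 57979037 counts. FABP1, the targeted gene, was not lower by its read counts in the antisense-labelled libraries. It stood at 138, 102 and 121 CPM (read counts scaled to a common effective library size) in the control and at 134, 147 and 122 CPM in the antisense-labelled libraries, with a log2 fold change of 0.16 (adjusted p = 0.268, edgeR). For that reason those libraries are called antisense-labelled. Use of strand in counting is not stated, so reads of FABP1 and of the antisense construct cannot be told apart, and a lower FABP1 level could go unseen. All adjusted p-values are Benjamini-Hochberg values from the quasi-likelihood test of edgeR, unless DESeq2 is named. Of 12 intestinal epithelial markers 11 were tested, 7 rose and 1 fell, beside 27.7% and 27.3% of all tested genes. Their summed level was 13480 to 16390 CPM in the control and 15640 to 18340 CPM in the antisense-labelled libraries. KRT8 and KRT18 made up most of that sum. Other markers on the list moved more, named after their values were seen. Mean levels went from 320 to 797 CPM for CDH17 and 77.0 to 164 CPM for CDX2. They went from 0.455 to 12.8 CPM for LGALS4, 0.587 to 5.35 CPM for KRT20 and 0.0524 to 12.3 CPM for GPA33. GPA33 entered the test through the antisense-labelled group alone, so its rise was bound to be seen. On the log2 scale VIL1 fell (-0.20), KRT18 (0.27) and CDH1 (0.20) rose less, and EPCAM (-0.08), HNF4A (0.13) and KRT8 (0.125) did not pass. Among 10 fibroblast markers COL1A2, DCN, THY1 and POSTN were at 0 in all 6 libraries, and the summed level was 39.4 to 42.3 CPM against 31.5 to 35.7 CPM. Among 6 endothelial markers CDH5, KDR, TEK and CLDN5 were at 0 (0.833 to 1.42 against 2.39 to 2.67 CPM). Among 7 leukocyte markers PTPRC was at 0 (44.3 to 48.1 against 63.7 to 66.9 CPM). The part of these shifts in the results below was not tested. In such bulk RNA, fewer cells that express a gene and less RNA per cell cannot be told apart.

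Promoter windows are printed for 4 genes on which the results turn: SMAD6, BAMBI and ID1, which BMP signals are known to induce, and GREM1, which had no reads in the control. Each is the 250 bases before the RefSeq gene start (build GRCh38.p14, plus strand), written 5′ to 3′. The windows lie at chr15:66701986-66702235, chr10:28677271-28677520, chr20:31605039-31605288 and chr15:32717754-32718003. Capitals mark matches to the motifs searched: the SMAD-binding palindrome GTCTAGAC, the shorter SMAD-binding CAGACA, the GC-rich GGCGCC bound by BMP SMADs, and the TATA box TATAAA.
SMAD6: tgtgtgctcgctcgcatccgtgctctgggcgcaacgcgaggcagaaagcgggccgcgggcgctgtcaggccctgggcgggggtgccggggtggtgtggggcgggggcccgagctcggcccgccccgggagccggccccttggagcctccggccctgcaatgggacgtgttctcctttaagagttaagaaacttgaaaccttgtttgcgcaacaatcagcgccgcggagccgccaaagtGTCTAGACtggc
BAMBI: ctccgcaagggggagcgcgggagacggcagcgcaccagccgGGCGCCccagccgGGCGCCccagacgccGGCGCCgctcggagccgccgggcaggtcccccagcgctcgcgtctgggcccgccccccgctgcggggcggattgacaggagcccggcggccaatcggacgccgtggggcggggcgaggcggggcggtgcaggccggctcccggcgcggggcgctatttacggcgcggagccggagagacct
ID1: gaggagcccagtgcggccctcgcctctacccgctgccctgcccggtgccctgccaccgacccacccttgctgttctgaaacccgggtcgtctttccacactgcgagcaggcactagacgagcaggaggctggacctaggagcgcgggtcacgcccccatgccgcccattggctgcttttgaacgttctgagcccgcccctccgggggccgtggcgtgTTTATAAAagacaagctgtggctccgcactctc
GREM1: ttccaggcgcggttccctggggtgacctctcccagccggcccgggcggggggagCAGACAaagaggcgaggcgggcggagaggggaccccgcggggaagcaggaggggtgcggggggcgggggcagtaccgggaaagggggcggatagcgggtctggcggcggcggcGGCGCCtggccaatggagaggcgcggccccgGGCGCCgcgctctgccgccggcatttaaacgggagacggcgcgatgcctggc

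Windows were available for 42 of the 47 genes. Both strands were searched, and GTCTAGAC and GGCGCC read the same on each strand. The palindrome GTCTAGAC was found in the SMAD6 window alone among the 42, from 12 to 5 bases before the start, and in 0.182% of 35116 RefSeq promoter windows of that length. GGCGCC was in 13 of the 42 windows and in 16.4% of all windows. It occurred 3 times in BAMBI, beginning 209, 196 and 181 bases before the start, and at 83 and 52 bases in GREM1. CAGACA was in 6 of the 42 (13.6% of all windows) and TATAAA in 7 (10.7%). The 2 TATAAA matches of ID1 overlap and lie on opposite strands. The ID2 and ID3 windows held none of these motifs. The RefSeq start was found in a GENCODE transcript of the gene for 23 of the 42, SMAD6, BAMBI and ID1 among them, and not for GREM1, so the GREM1 positions hold for the RefSeq start alone. A gene can have other starts, and a match describes the letters in the window and no binding.

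Most genes of the pathway differed between the groups, and they did so in both directions. Of the 42 tested, 17 were higher in the antisense-labelled libraries and 15 lower, with p-values adjusted over all 14640 tested genes and a threshold of 0.05. Over all tested genes 27.7% were higher and 27.3% lower, 55.0% in all, against 76.2% of the 42. The median log2 fold change of the 42 was 0.14, against 0.01 over all tested genes, and the median size of change was 0.63 against 0.36. A called change of at least 2-fold was found in 12 of the 42 (28.6%, against 14.9% of all tested genes), 5 of them higher (8.8% of all tested genes) and 7 lower (6.12%). The groups did not overlap in 33 of the 42 (78.6%, against 62.7%). No test was made of these differences in share. GREM1 and SMAD9 entered the test through the antisense-labelled group alone and TGFB2 through the control alone, so a difference in these 3 was bound to be seen.

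**Figure D1:**
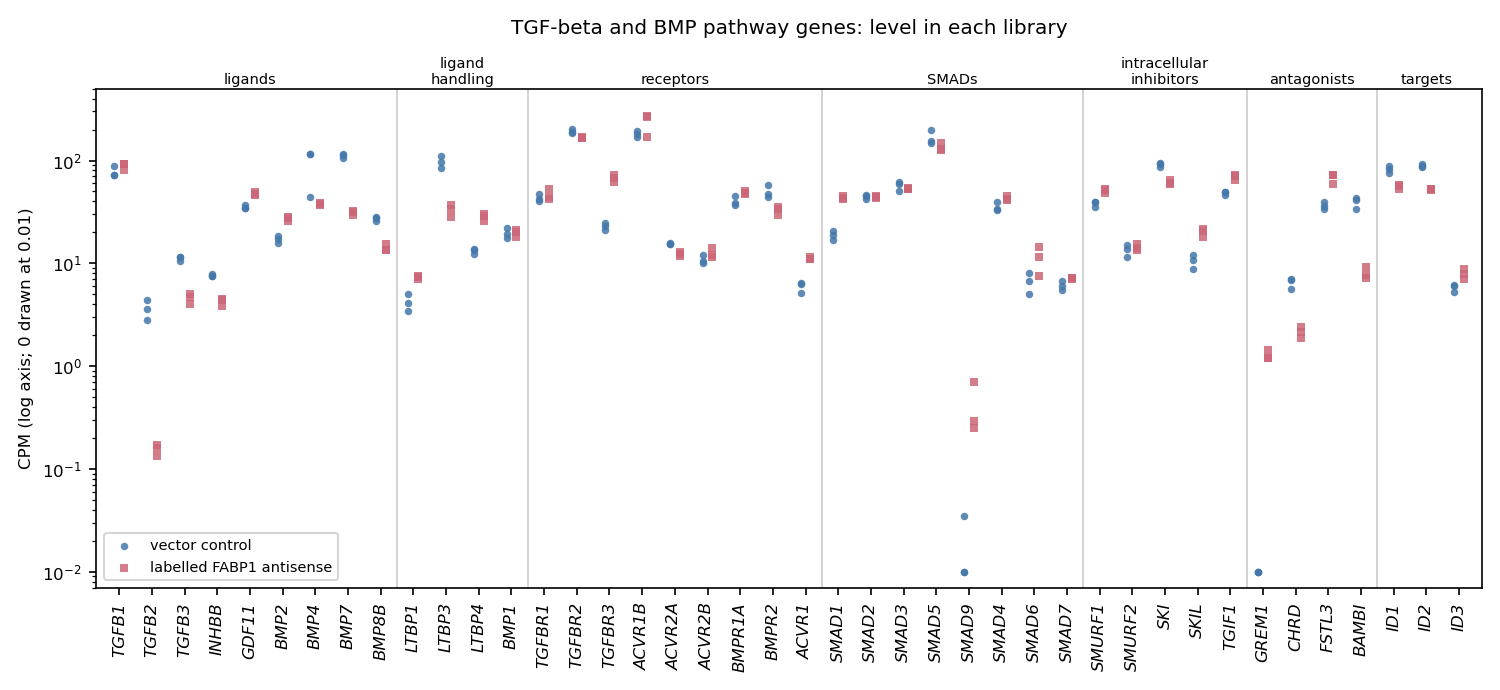
Level of the 42 tested genes in each library, in CPM on a log axis, grouped by role, with circles for the 3 vector control libraries and squares for the 3 antisense-labelled ones (0 drawn at 0.01). TGFB2, BMP7, LTBP3 and BAMBI sit lower and TGFBR3, SMAD1 and GREM1 higher in the antisense-labelled libraries, and BMP4 shows 1 control library (43.8 CPM) away from the other 2.

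**Figure D2:**
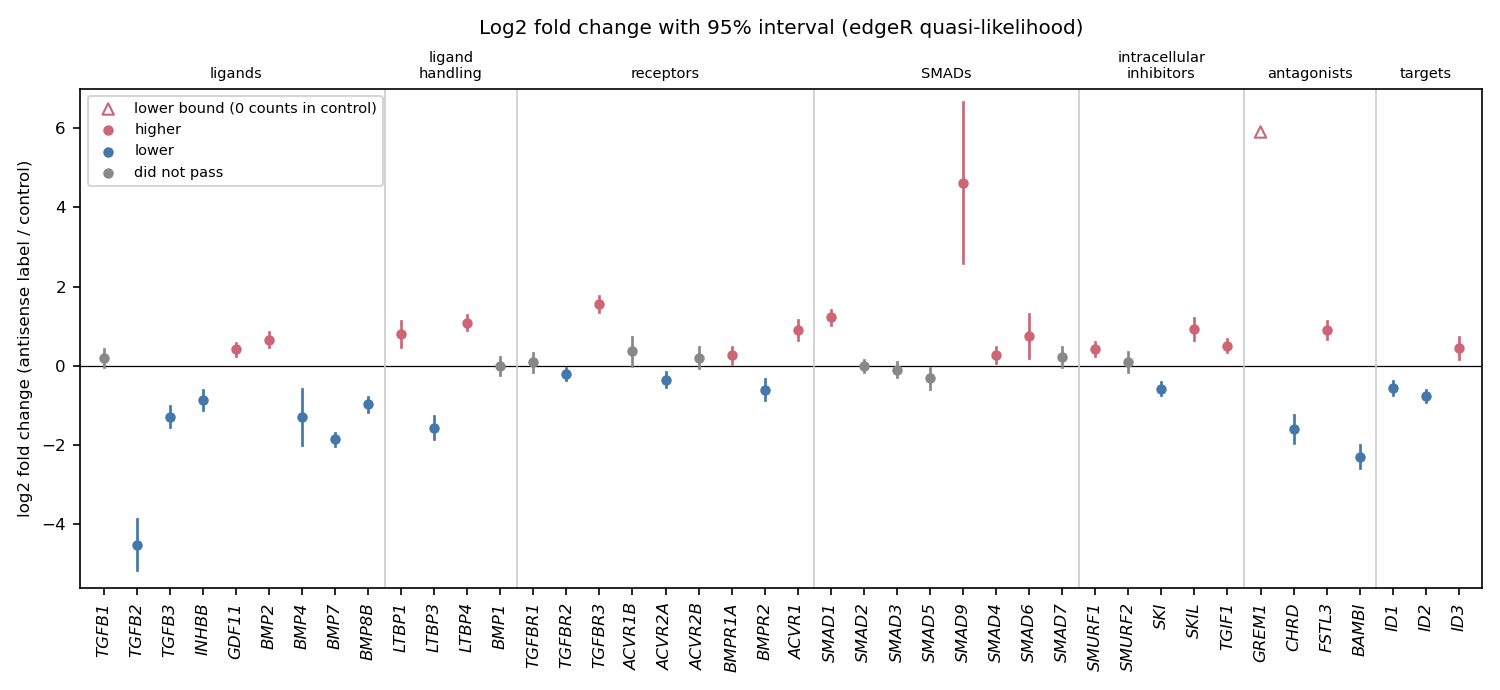
Log2 fold change of each tested gene, antisense label over control, with its 95% interval, coloured by the call of edgeR's quasi-likelihood test. The open triangle is the lower bound for GREM1, 60-fold against 3 counts over the control group. Of 9 ligands 6 are lower, of 8 SMAD genes 4 are higher and none lower, and the 4 antagonists lie on both sides of 0. Among all tested genes 27.7% are higher and 27.3% lower. GREM1 and SMAD9 entered the test through the antisense-labelled group alone and TGFB2 through the control alone, so these calls were bound to be seen.

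Among the 9 tested ligands 6 were lower, 2 were higher and TGFB1 did not pass. The shares over all tested genes were 27.3% lower and 27.7% higher. The median log2 fold change of the 9 was -0.97, which includes TGFB2, whose difference was bound to be seen. With at least 10 counts in every library, which leaves out TGFB2, 5 were lower and 2 higher of 8. BMP7 fell from 112, 106 and 117 CPM to 32.0, 31.3 and 29.7 CPM. This is a 3.60-fold lower level (log2 fold change -1.85, SE 0.07, adjusted p = 1.71e-07, edgeR), and the highest antisense-labelled library lay far under the lowest control. BMP7 is a ligand known for opposing TGF-beta-driven loss of epithelial character.

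BMP4, a ligand of the intestinal villus compartment, had an uneven control group. It stood at 116, 43.8 and 116 CPM in control libraries 2, 3 and 4, and at 36.7, 38.4 and 37.5 CPM in the antisense-labelled libraries. The groups did not overlap, but control library 3 lay close to the antisense-labelled libraries. The log2 fold change was -1.30 (SE 0.31, adjusted p = 0.00669, edgeR). Without control library 3 it was -1.63 (adjusted p = 3.85e-07). BMP8B fell by 0.97 on the log2 scale, from 27.5 ± 1.28 to 14.0 ± 1.09 CPM (SD, n = 3). Its near-identical copy BMP8A fell by 1.82, and since reads could be split between them both values are uncertain. BMP2 rose from 17.1 ± 1.33 to 27.0 ± 1.08 CPM (0.66, SE 0.09), so the ligands of the BMP branch did not move as 1 group.

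Of the TGF-beta ligands, TGFB2 and TGFB3 fell and TGFB1 did not pass. TGFB2, the isoform that needs betaglycan for efficient receptor binding, went from 2.83, 3.60 and 4.38 CPM to 0.170, 0.134 and 0.160 CPM. This 22.9-fold lower level (log2 fold change -4.52, SE 0.28) rests on 7, 6 and 9 counts in the antisense-labelled libraries. TGFB2 entered the test through the control alone, so its difference was bound to be seen and no p-value is given. TGFB3 went from 10.5, 11.6 and 11.5 CPM to 3.98, 5.08 and 4.71 CPM (-1.28, SE 0.12, adjusted p = 3.08e-05, edgeR). For TGFB3 every control library lay above every antisense-labelled one. TGFB1 stood at 72.1, 71.6 and 89.4 CPM and at 92.6, 92.4 and 81.4 CPM. Its groups overlapped (log2 fold change 0.19, 95% interval -0.04 to 0.42, adjusted p = 0.143, edgeR), and it passed only without control library 4 (0.30, adjusted p = 0.0193).

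The activin subunit genes were low or absent. INHBA had 0 counts in all 6 libraries. INHBB, the subunit of activin B, fell from 7.69 ± 0.232 to 4.25 ± 0.365 CPM (log2 fold change -0.86, SE 0.11; SD, n = 3). GDF11, a ligand that signals through activin receptors, rose by 0.42 (SE 0.07) from 35.5 ± 1.47 CPM.

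The latent TGF-beta binding proteins, which tether the inactive ligand in the matrix, moved in opposite directions. LTBP3 fell from 96.0, 84.7 and 111 CPM to 33.9, 36.7 and 28.2 CPM (log2 fold change -1.56, SE 0.13, adjusted p = 1.33e-05, edgeR). LTBP4 rose from 12.5, 13.4 and 13.7 CPM to 28.6, 29.9 and 25.8 CPM (1.09, SE 0.09, adjusted p = 1.28e-05, edgeR), and LTBP1 rose by 0.81 (SE 0.15) to 7.29 ± 0.227 CPM. No library of one group reached into the other for any of the 3. Per base of transcript, LTBP3 made up 87.2 ± 1.94% of the 3 LTBP genes in the control and 53.3 ± 1.94% in the antisense-labelled libraries, and LTBP4 went from 9.76 ± 1.07% to 37.3 ± 0.858% (SD, n = 3). BMP1, a protease that matures collagen and cleaves the BMP antagonist chordin, stood at 19.6 ± 2.17 and 19.6 ± 1.56 CPM (log2 fold change 0.00, 95% interval -0.23 to 0.23).

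**Figure D3:**
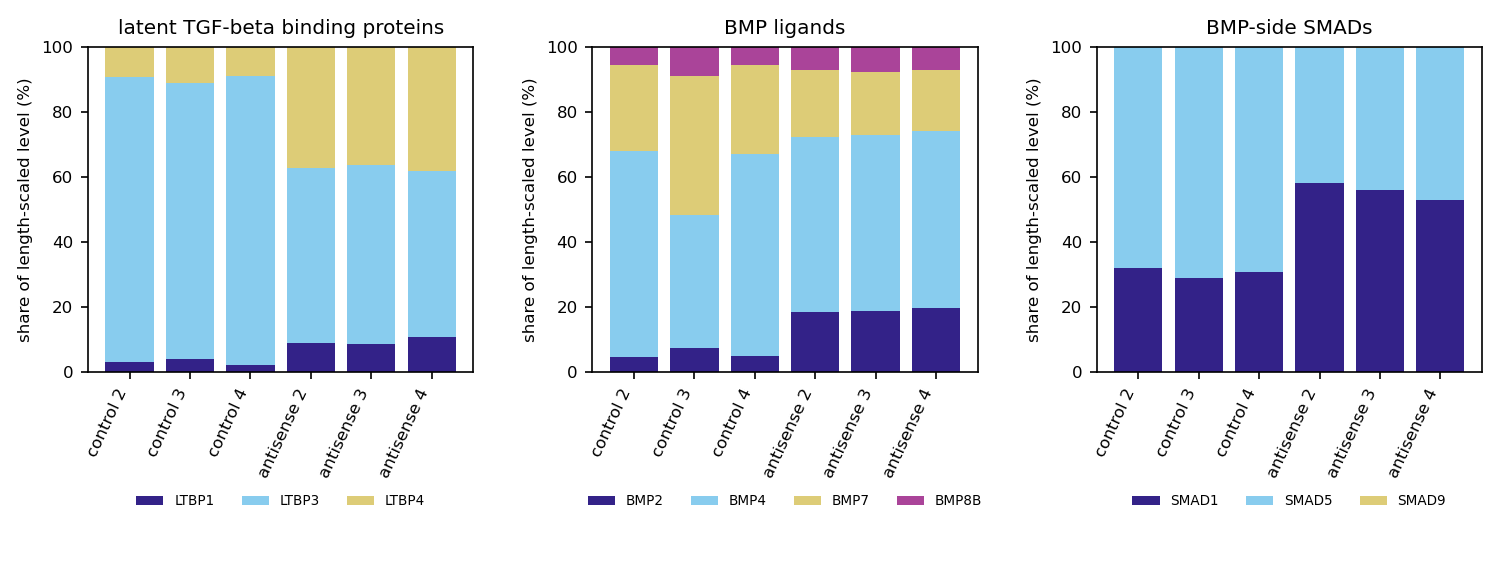
Share of each gene in the length-scaled level (counts over transcript length) of the LTBP genes, the BMP ligands and the BMP-side SMADs, as stacked bars per library. LTBP4 and SMAD1 take a larger share in each antisense-labelled library than in any control library, and control library 3 has the smallest BMP4 share of the 6.

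Of 9 tested receptors, 3 rose, 3 fell and 3 did not pass, beside 27.7% higher and 27.3% lower of all tested genes. The median size of change was 0.34, beside 0.97 for the ligands and 0.36 for all tested genes. Only TGFBR3 changed by over 2-fold among the 9. TGFBR3, the coreceptor betaglycan that presents TGF-beta to its receptor, rose from 21.0, 24.5 and 22.9 CPM to 61.7, 67.7 and 71.6 CPM. The rise was 2.94-fold (log2 fold change 1.56, SE 0.09, adjusted p = 1.80e-06, edgeR), and the groups stood far apart. ACVR1B, the activin type I receptor, stood at 171, 182 and 194 CPM in the control and 170, 273 and 263 CPM in antisense-labelled libraries 2, 3 and 4. Antisense-labelled library 2 lay at the level of the control, the groups overlapped, and the gene did not pass (log2 fold change 0.37, 95% interval 0.01 to 0.73, adjusted p = 0.0785, edgeR). Without that library it was 0.56 (adjusted p = 0.00132), and by DESeq2 on all 6 libraries 0.37 (adjusted p = 0.0212).

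The TGF-beta type II receptor gene TGFBR2 fell slightly, from 192 ± 9.07 to 166 ± 2.74 CPM (log2 fold change -0.21, SE 0.06, adjusted p = 0.0237, edgeR; SD, n = 3). This call was lost without antisense-labelled library 2 or 3 or control library 2 or 3 (-0.17 to -0.22, adjusted p = 0.0518 to 0.0834). TGFBR1, its type I partner, did not pass (0.09, 95% interval -0.15 to 0.33). Of the activin type II receptors, ACVR2A fell by 0.34 (SE 0.08) and ACVR2B did not pass (0.20, SE 0.12). On the BMP side, the type II receptor gene BMPR2 fell by 0.60 (SE 0.12) from 49.9 ± 7.39 CPM. ACVR1, a BMP type I receptor, rose by 0.91 (SE 0.11) to 11.2 ± 0.262 CPM. BMPR1A, the main intestinal BMP type I receptor, rose by 0.27 (SE 0.09, adjusted p = 0.0337, edgeR), but did not pass in 5 of the 6 leave-one-out fits (0.20 to 0.29, adjusted p = 0.0679 to 0.110), all but the fit without control library 3. BMPR1B had 0 counts in the control group and 3 in the other, too few to be tested.

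Among the SMADs, the BMP-side SMAD1 rose while SMAD2 and SMAD3 did not pass. SMAD1 went from 18.7, 20.4 and 17.0 CPM to 45.0, 42.5 and 43.4 CPM (2.33-fold, log2 fold change 1.22, SE 0.09, adjusted p = 6.43e-06, edgeR). The lowest antisense-labelled library was above all the controls by more than the spread within either group. SMAD5, which shares the BMP branch with SMAD1, stood at 153, 197 and 149 CPM, against 126, 128 and 148 CPM in the antisense-labelled libraries. Its groups did not overlap, but they nearly touched, and it missed the threshold (-0.31, SE 0.12, adjusted p = 0.0501, edgeR). It passed without antisense-labelled library 4 (-0.39, adjusted p = 0.0341) or control library 4 (-0.39, adjusted p = 0.0298), and by DESeq2 (-0.31, adjusted p = 0.0181). Per base of transcript, SMAD1 made up 30.4 ± 1.69% of SMAD1, SMAD5 and SMAD9 together in the control and 55.7 ± 2.49% in the antisense-labelled libraries (SD, n = 3).

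SMAD9 was near the limit of detection. It had 2, 0 and 0 counts in the control and 12, 31 and 14 in the antisense-labelled libraries. The ratio was 28.3 (95% interval from counting error 7.49 to 240), and this interval leaves out the spread between libraries. SMAD9 entered the test through the antisense-labelled group alone, so its rise was bound to be seen. The fitted log2 fold change was 4.63 and became 7.21 without control library 2, which held both control counts. SMAD2 stood at 44.4 ± 2.31 and 44.3 ± 1.01 CPM (log2 fold change 0.00, 95% interval -0.17 to 0.16). SMAD3 stood at 57.0 ± 5.54 and 53.2 ± 0.281 CPM (-0.10, 95% interval -0.29 to 0.09). The intervals of both leave out a change of 1.5-fold in either direction. SMAD4, the common partner, rose by 0.27 (SE 0.09, adjusted p = 0.0327, edgeR), but did not pass in 5 of the 6 leave-one-out fits (0.22 to 0.31, adjusted p = 0.0557 to 0.123), all but the fit without control library 3.

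Of the inhibitory SMADs, SMAD6, which acts mainly on BMP signals, stood at 5.04, 6.69 and 8.01 CPM in the control and 11.4, 14.3 and 7.55 CPM in antisense-labelled libraries 2, 3 and 4. Library 4 of the antisense-labelled group lay inside the control range. The gene passed (log2 fold change 0.75, SE 0.24, adjusted p = 0.0253, edgeR), but not without antisense-labelled library 2 or 3 or control library 2 (0.53 to 0.73, adjusted p = 0.0606 to 0.0976). SMAD7, which blocks both branches, did not pass (0.23, 95% interval -0.02 to 0.48, adjusted p = 0.101, edgeR). In all, 4 of 8 SMAD genes rose and 0 fell, beside 27.7% higher and 27.3% lower of all tested genes. SMAD9, among the 4, entered the test through the antisense-labelled group alone, so its call was bound to be seen. With at least 10 counts in every library, which leaves out SMAD9, 3 rose and 0 fell of 7. Without antisense-labelled library 2 or 3, or without control library 2, 2 of the 8 rose. SMAD5 fell in the fits without library 4 of either group and by DESeq2.

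Of the 5 intracellular inhibitors 3 rose, SKI fell and SMURF2 did not pass, beside 27.7% higher and 27.3% lower of all tested genes. SKI, a corepressor that binds SMAD complexes, fell from 85.8, 93.3 and 95.3 CPM to 58.9, 64.6 and 60.5 CPM (log2 fold change -0.58, SE 0.07, adjusted p = 0.000222, edgeR). SKIL, its close relative and itself a gene induced by TGF-beta, rose from 10.8, 12.0 and 8.78 CPM to 20.7, 18.0 and 21.6 CPM (0.93, SE 0.13, adjusted p = 0.000286, edgeR). The groups of both genes were apart, in opposite directions. TGIF1, a homeodomain corepressor of SMAD2 and SMAD3, rose by 0.51 (SE 0.08) from 48.5 ± 2.22 to 69.3 ± 4.46 CPM. The ubiquitin ligase gene SMURF1 rose by 0.42 (SE 0.08), and SMURF2 did not pass (0.09, 95% interval -0.16 to 0.35).

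The 4 tested antagonists at or outside the membrane passed, 2 up and 2 down, beside 27.7% higher and 27.3% lower of all tested genes. Without GREM1, whose difference was bound to be seen, 1 rose and 2 fell, with a median log2 fold change of -1.59. BAMBI, a pseudoreceptor without a kinase that dampens signalling, fell from 43.5, 33.9 and 41.3 CPM to 9.28, 7.74 and 7.25 CPM. The level was 4.90-fold lower (log2 fold change -2.29, SE 0.13, adjusted p = 1.48e-06, edgeR), with every antisense-labelled library under 10 CPM. CHRD, the secreted BMP antagonist chordin, fell from 6.86, 5.58 and 6.99 CPM to 1.89, 2.42 and 2.13 CPM (-1.59, SE 0.16, adjusted p = 4.51e-05, edgeR).

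GREM1, the BMP antagonist gremlin that crypt-base stromal cells are known to secrete, had 0 counts in the control libraries. It had 49, 64 and 68 counts in the antisense-labelled libraries, or 1.19, 1.43 and 1.21 CPM. Against 3 counts over the control group the level was at least 60-fold higher. GREM1 entered the test through the antisense-labelled group alone, so no p-value is given. Beside this, the fibroblast markers moved apart: LUM rose from 18 to 2602 counts and PDGFRA fell from 3151 to 59, while COL1A2, DCN, THY1 and POSTN stayed at 0. Their part in the GREM1 difference was not tested. FSTL3, a follistatin-like binder of activin, rose from 36.0, 33.5 and 39.9 CPM to 72.6, 72.2 and 59.5 CPM (0.90, SE 0.10, adjusted p = 0.000114, edgeR), with the lowest antisense-labelled library above all the controls. NOG (2 and 4 counts over the groups) and FST (3 and 0 counts) were too low to be tested, so no difference was detectable at this depth.

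The ID genes, inhibitors of basic helix-loop-helix factors and classical targets of BMP signals, split. ID2 fell from 93.3, 89.0 and 86.5 CPM to 52.0, 53.2 and 52.7 CPM (log2 fold change -0.77, SE 0.07, adjusted p = 1.93e-05, edgeR). ID1 fell from 82.7, 74.9 and 88.6 CPM to 55.9, 58.4 and 53.1 CPM (-0.56, SE 0.08, adjusted p = 0.000514, edgeR). Both genes had groups that stood apart, with little spread in the antisense-labelled libraries. ID3, from a lower level, rose from 5.21, 5.95 and 6.17 CPM to 8.82, 7.87 and 7.11 CPM (0.46, SE 0.12, adjusted p = 0.0125, edgeR). ID4 had 0 counts in all 6 libraries. Antisense transcripts listed for the 47 genes had at most 131 counts over a group, and strand use in counting is not stated. ID2-AS1, with 125 and 50 counts, fell with ID2 (-1.39, adjusted p = 0.0172, edgeR).

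Other genes of the pathway were taken by textbook role. Of 108 listed, 68 were tested, 25 rose, 20 fell and 23 did not pass, with a median log2 fold change of 0.04. These are 36.8% higher and 29.4% lower, 66.2% in all, beside 27.7%, 27.3% and 55.0% of all tested genes. ACVRL1, ITGB6, TLL1 and PMEPA1 entered the test through the antisense-labelled group alone and NODAL through the control alone, so their calls, which the counts include, were bound to be seen. With at least 10 counts in every library 20 rose and 17 fell of 59. The lists of target genes differed in their counts. Of 17 tested TGF-beta targets, 10 rose (58.8%) and 3 fell (17.6%), with a median log2 fold change of 0.35. With at least 10 counts in every library 9 rose and 2 fell of 16. KLF10, a repressor induced early by TGF-beta, rose from 15.4 ± 1.02 to 36.4 ± 0.924 CPM (1.24, SE 0.08), and SNAI1, a repressor of E-cadherin, rose by 0.92 (SE 0.13; SD, n = 3). COL4A1, a basement membrane collagen, fell by 3.51 (SE 0.10) from 27.5 ± 1.51 CPM, and TGFBI, a matrix protein, by 0.88 (SE 0.08) from 206 ± 11.8 CPM. CDKN2B (0.70), a cell cycle inhibitor gene, and JUNB (0.49), an AP-1 subunit gene, rose, named here after their values were seen.

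Of 9 tested BMP targets, 0 rose, 4 fell (44.4%) and 5 did not pass, with a median log2 fold change of -0.18. Over all tested genes 27.7% were higher and 27.3% lower, 55.0% in all, so the share called was no larger on this list. The homeobox genes MSX2 and MSX1 fell from 26.2 ± 1.15 to 6.19 ± 0.355 CPM and from 40.0 ± 3.82 to 14.3 ± 1.59 CPM (log2 fold changes -2.08, SE 0.08, and -1.48, SE 0.11; SD, n = 3). GATA2 fell by 1.80 (SE 0.12) and TBX2 by 0.65 (SE 0.17), both transcription factor genes. TBX3, GATA3 and PRDM1 did not pass (0.01, -0.18 and 0.02). Many of these genes respond to other signals too, and no test compared the lists.

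**Figure D4:**
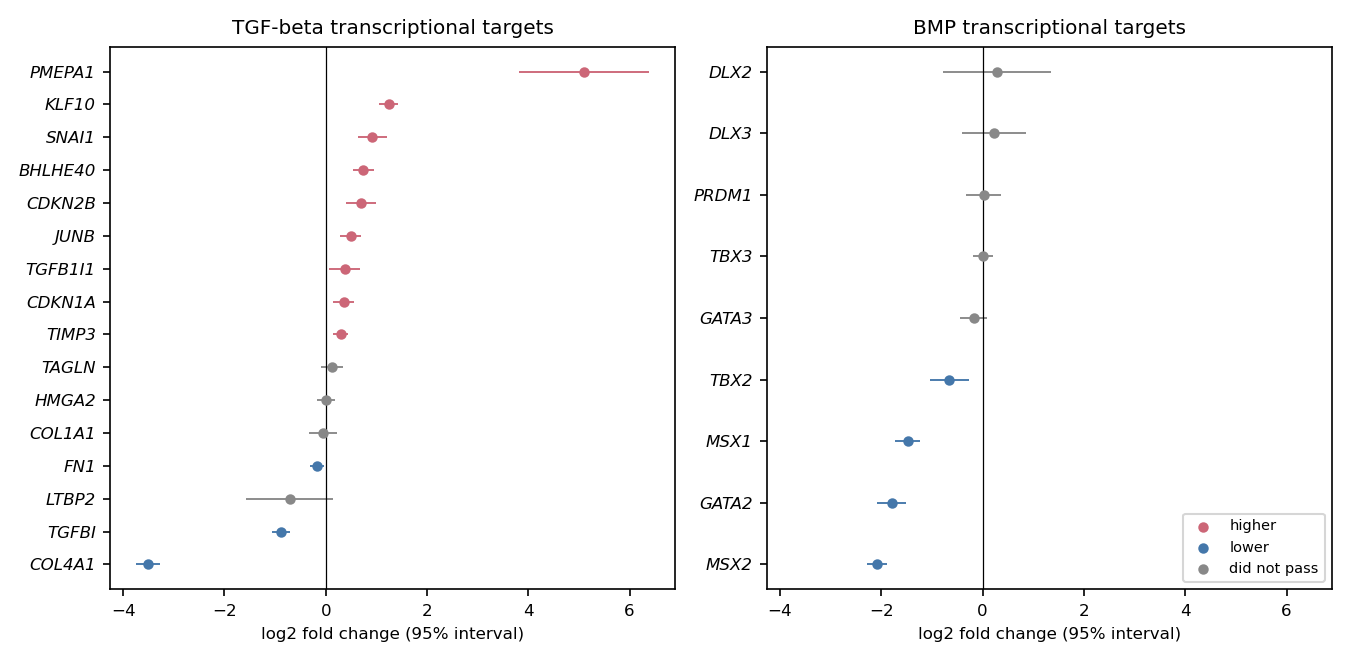
Log2 fold change with its 95% interval for the tested genes of the TGF-beta and BMP target lists, coloured by the call of edgeR's quasi-likelihood test. On the TGF-beta side 16 of the 17 tested genes are drawn, 9 of them in the higher class, and COL4A1 is far below 0. On the BMP side 0 of 9 are higher and 4 lower. Among all tested genes 27.7% are higher and 27.3% lower.

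The remaining lists held large single changes. Of 9 tested genes of ligand release and activation, 3 rose and 2 fell (55.6% called, beside 55.0% of all tested genes). With at least 10 counts in every library, which leaves out ITGB6 and TLL1, 1 rose and 2 fell of 6. THBS1, thrombospondin 1, an activator of latent TGF-beta, fell from 207 ± 13.7 to 16.3 ± 1.62 CPM (log2 fold change -3.67, SE 0.10; SD, n = 3). ITGB8, the beta subunit of an integrin that activates latent TGF-beta, rose from 2.31 ± 0.328 to 35.2 ± 3.47 CPM (3.93, SE 0.13), so these activators moved in opposite directions. The proprotein convertase gene PCSK6 fell by 0.51 (SE 0.07) and FURIN did not pass (-0.14, SE 0.09). Of 10 other ligands, 2 rose and 4 fell (60.0% called, beside 55.0% of all tested genes). NODAL, among the 4, entered the test through the control alone, so its call was bound to be seen. With at least 10 counts in every library, which leaves out NODAL, 2 rose and 3 fell of 8. The fit without control library 2 gave 2 higher and 2 lower of 11. GDF15, a distant ligand of the family, rose from 19.6 ± 2.104 to 86.0 ± 6.58 CPM (2.13, SE 0.10), AMH rose by 0.87 (SE 0.18), and GDF7 fell by 0.94 (SE 0.16).

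Of 4 other receptors and coreceptors, 3 rose and 0 fell (75.0% called, beside 55.0% of all tested genes). Without ACVRL1 (2 against 50 counts) those that rose were ACVR1C (0.82, SE 0.11), a type I receptor, and RGMB (0.33, SE 0.07), a BMP coreceptor. Of 4 other antagonists, 2 rose and 1 fell (75.0% called). CRIM1, a membrane-bound binder of BMPs, fell from 251 ± 17.6 to 97.9 ± 0.776 CPM (-1.36, SE 0.07; SD, n = 3). TWSG1 rose by 0.40 (SE 0.09), and SOSTDC1 rose from 42 to 241 counts. With at least 10 counts in every library, which leaves out SOSTDC1, 1 rose and 1 fell of 3. Of 17 intracellular regulators, 6 rose and 6 fell (70.6% called). With at least 10 counts in every library, which leaves out PMEPA1, 5 rose and 5 fell of 16. LEMD3, an inner nuclear membrane protein that holds back SMADs, rose by 0.66 (SE 0.11), the deubiquitinase gene USP15 by 0.63 (SE 0.10) and the ubiquitin ligase gene NEDD4L by 0.51 (SE 0.07), while RBL1 fell by 0.58 (SE 0.10).

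Levels of different genes were compared as length-scaled CPM (counts over transcript length, scaled to the same sum in each library), for 46 of the 47 genes (TGFB3 had no matched length). In the control the order was led by ACVR1B (162 ± 11.7), ID1 (154 ± 7.77), ID2 (138 ± 7.11), BMP4 (110 ± 47.1) and TGFBR2 (87.6 ± 7.59; SD, n = 3). ACVR1B and ID1 lay within their spread of each other, and the spread of BMP4 overlapped that of each of the other 4. In the antisense-labelled libraries ACVR1B (206 ± 54.0) and ID1 (103 ± 4.36) led, and BMP4 stood at place 10 (44.4 ± 2.05). BMP7 moved from place 9 to 17 and BAMBI from 12 to 27. TGFBR3 moved from place 25 to 12. With the longest transcript in place of the median length, the levels of ACVR1B, SMAD2, SMAD3, SMAD7 and TGIF1 moved by over 1.5 times, and ACVR1B stood at place 5 in the control, behind ID1.

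Each gene was also set beside the median log2 fold change over itself and 50 expressed chromosomal neighbours on either side, which could be had for 32 of the 42. These medians ran from -0.48 to 0.33. Of the 24 called genes among them, 17 changed in the direction of that median and 7 against it. Among all expressed genes with such a median 4410 were called, and 79.3% of these had its sign, as did 14 of the 18 called pathway genes in that set. The neighbour median lay inside the gene's own 95% interval for 8 genes, of which GDF11 (0.42, neighbours 0.33), BMPR1A (0.27, neighbours 0.22) and SMAD6 (0.75, neighbours 0.27) had passed the test. ACVR1B (0.37) also lay beside neighbours of a like shift (0.33). SKI had too few neighbours for this window, and with 25 on either side the median was -0.58, the value of SKI itself.

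Neighbour medians ran only from -0.48 to 0.33, so larger changes were bound to exceed them. The distances below are descriptions. BMP7 lay among neighbours with a median of -0.44, of which 82.0% were lower, and stood 1.40 below that median. BMP8B (-0.97) stood 0.53 below a median of -0.44, and ID1 (-0.56) stood 0.27 below one of -0.29. BAMBI went against its neighbours (-2.29 against 0.28), as did TGFBR3 (1.56 against -0.32), LTBP1 (0.81 against -0.21) and ID3 (0.46 against -0.48). SMAD1 rose by 1.22 where its neighbours had a median of 0.21.

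**Figure D5:**
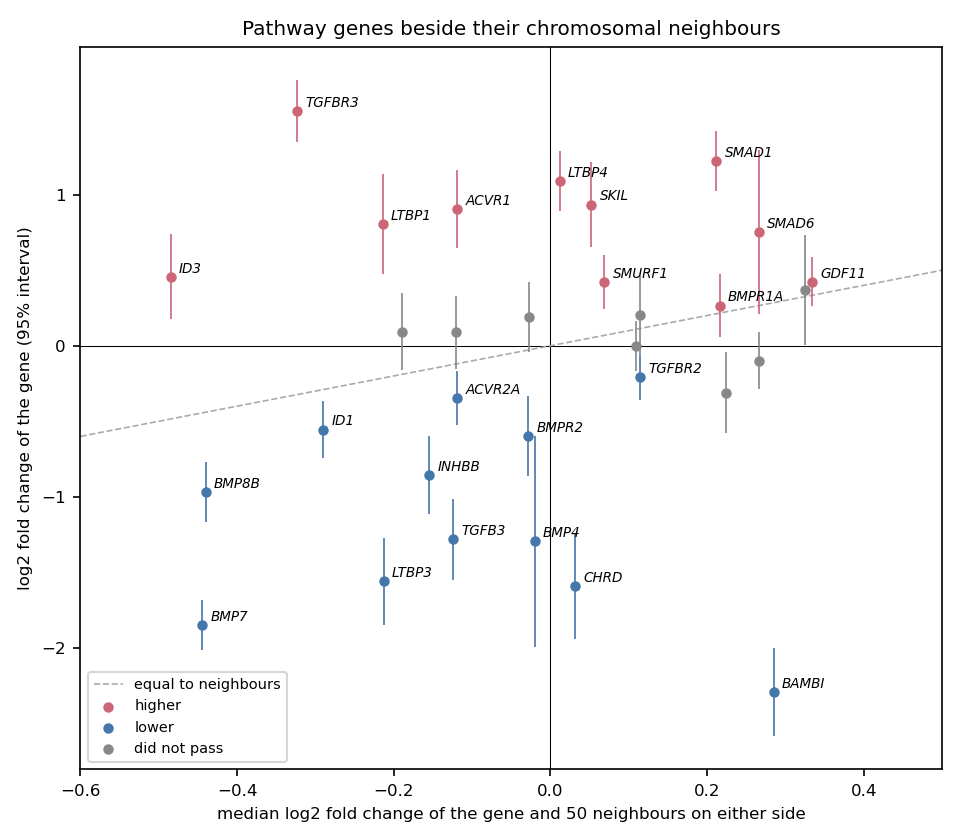
Log2 fold change of each gene, with its 95% interval, against the median of its chromosomal neighbours, with a dashed line where the values are equal (31 genes drawn, TGFB2 at -4.52 beside -0.21 left out for scale). GDF11 and BMPR1A sit near the line, while BAMBI and TGFBR3 lie on the far side of 0 from their neighbours.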

How the data were processed

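PolyA RNA of 2 groups of 3 Caco-2 libraries was sequenced from TruSeq Stranded mRNA libraries, per the labels' protocols. Tools listed without roles in the submitters' processing notes are StringTie 1.3.4d, HISAT2 2.1.0, Bowtie2 2.3.4.1, Trimmomatic 0.38 and bcl2fastq, with the build GRCh37. Use of strand in counting is not stated, so reads of a gene and of its antisense partner cannot be separated. The deposited read counts per gene, not normalized per the file headers, were used. The 12 other per-library columns were not used. Column headers name the group and the numbers 2, 3 and 4, while the labels number replicates from 1, so columns were matched to groups alone and libraries carry header numbers.

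The main test was that of edgeR 4.0.16 in R 4.3.3 (filterByExpr, TMM, glmQLFit, glmQLFTest; 14640 genes tested, Benjamini-Hochberg adjustment, threshold 0.05). The SE of a log2 fold change is its size over the square root of F, and 95% intervals use residual plus prior degrees of freedom. CPM use effective library sizes. A group with 0 counts was set to 3 counts over the group for a bound, which covers counting error only, and the interval of a ratio of counts is exact binomial. Chi-square values per degree of freedom between libraries of a group, 14.2 to 41.3, exceeded sampling noise. The length of a gene is the median of its GENCODE transcripts, found for 25767 genes through RefSeq accessions. Neighbours were taken in the gene order of RefSeq (GRCh38.p14), which placed 99.8% of tested genes, among 9873 genes whose mean log2 CPM reached 3. Promoter windows came from RefSeq (GRCh38.p14), and the proteins of the SMADs were not analysed here.

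The 47 genes, their classes, the other lists and the neighbour comparison were chosen with earlier results of these data known. The rule names all 47, with values per library for those called without overlap, at a mean log2 CPM of at least 1 and at least 2-fold, and for the highest of each class, and up to 4 genes per other list. Values per library of other members (TGFB1, TGFB2, SMAD6, SMAD9, GREM1, SKIL, ID1 and ID3) were added after seeing them. HJV and CCN2 were matched by gene ID. The values of 1 gene of the TGF-beta target list are not reported here, though the counts include it. Alternatives were DESeq2 1.42.0 (size factors, Wald test), library size only, other filters, a block on header numbers and leaving out each library. Counts of this comparison were simulated for 14640 genes, with 50 changed per fold size. The test recovered 72% of genes changed 1.5-fold, 96% at 2-fold and 100% at 4-fold, with 11 false calls among 14440. The 200 changed genes had a mean log2 CPM of at least 1, so recovery of lower genes was not simulated. Far fewer genes were changed in the simulation than the 55.0% called in the data. Figures used Python 3.11.15 and matplotlib 3.10.9.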

Additional observations from a re-analysis of the deposited data

How the results depend on the processing

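Of the 32 pathway genes called, 28 kept their direction and their call in all alternatives that tested them (12 in all), and TGFBR2, BMPR1A, SMAD4 and SMAD6 lost it in some. TGFB1, ACVR1B and SMAD5 passed in some, and 0 called genes reversed. The number of genes called ran from 14 to 17 higher and 14 to 16 lower when 1 library was left out, 18 and 16 by DESeq2, and 15 and 14 of 39 when at least 10 counts in every library were required, which left out TGFB2, SMAD9 and GREM1. Other scalings moved the median of all genes by at most 0.0114 on the log2 scale.

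Header numbers are shared by the groups, but same-numbered libraries did not deviate together (correlations of deviations 0.00993, -0.246 and -0.408). Libraries of unlike number gave -0.201 to 0.406. With 3 libraries a group, these linked correlations cannot show whether a number marks a shared culture or day. With a replicate block on that number, 15 genes were higher and 14 lower, and over all genes 3355 higher and 3306 lower, against 4062 and 3992 without it. Among the pathway genes the block took away 3 calls and added or reversed 0.

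At 40351394 to 57979037 counts per library, 3 counts over a group came to 0.0212 CPM in the control, so INHBA, ID4, BMPR1B, NOG and FST could not be compared. Changes under 1.5-fold are the least sure of detection.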

Other observations

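Several further pathway genes had few or no reads in the control and low levels in the antisense-labelled libraries. They fall outside the naming rule and were chosen after their values were seen. PMEPA1, ITGB6, ACVRL1 and TLL1 entered the test through the antisense-labelled group alone and NODAL through the control alone, so no test is given. PMEPA1, a gene induced by TGF-beta whose product holds back SMAD2 and SMAD3, went from 7 to 257 counts over the groups (0.0559 ± 0.0505 to 1.84 ± 0.258 CPM, SD, n = 3). ITGB6, the beta subunit of another integrin that releases latent TGF-beta, went from 3 to 137 counts, and ACVRL1, a type I receptor best known from endothelium, from 2 to 50. TLL1, a protease related to BMP1, went from 0 to 65 counts, and SOSTDC1, a secreted BMP and Wnt antagonist, from 42 to 241. In the other direction, NODAL, an activin-like ligand, went from 82 to 16 counts and INHA, the inhibin alpha subunit gene, from 138 to 56.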
